A study of Mus musculus with 27 samples.

Results

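The genes described here are Gnb1, Sdf4, B3galt6 and Dvl1, which lie near the distal end of mouse chromosome 4. They were selected on the measured difference between C57 and DBA brain in these same arrays, together with their position, so their strain differences are given as a description with no test. All probe sets listed for the 4 symbols or their synonyms were taken, which gave 6 of 12422 probe sets without array controls and 4 of 8251 named genes. Gnb1 had 3 sets, and Sdf4, B3galt6 and Dvl1 had 1 each. RNA from whole brain was measured in 5 C57 mice (strain label C57BL/2, male) and 4 DBA mice (strain label DBA/2J, sex not given), each naive and aged 10 weeks. Each numbered array was taken as 1 animal, so p-values measure the spread between the 9 arrays used, and the other 18 arrays of the series, on a second platform, were not used.

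Heterotrimeric G proteins carry signals from membrane receptors into the cell. Gnb1 encodes a beta subunit that pairs with a gamma subunit; the pair is released from the alpha subunit upon activation and acts on potassium channels, calcium channels, adenylyl cyclases and phospholipase C, which in brain sets the response to many transmitters. Sdf4 encodes Cab45, a calcium-binding protein of the Golgi lumen that takes part in the sorting of secreted proteins. B3galt6 encodes a galactosyltransferase that builds the linker by which heparan and chondroitin sulfate chains are attached to proteins. Dvl1 encodes a Dishevelled protein, which relays Wnt signals from Frizzled receptors.

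B3galt6 and Sdf4 are direct neighbours in the order of protein-coding genes, and point away from each other. Their strain differences had opposite signs, so the reference sequence between them is shown. It runs over chr4:155992679-155992842 of GRCm38.p6, plus strand, and is 164 bases long (RefSeq, strain C57BL/6J). Capitals mark a repeated word of 23 bases, found as the longest word that occurs at least 5 times there.
Between B3galt6 and Sdf4: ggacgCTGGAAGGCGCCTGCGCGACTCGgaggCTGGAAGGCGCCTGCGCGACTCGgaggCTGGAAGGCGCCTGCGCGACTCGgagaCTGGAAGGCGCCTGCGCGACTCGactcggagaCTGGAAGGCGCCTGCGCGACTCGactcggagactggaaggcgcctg
The 5 copies of the word fill 70.1% of the stretch, in steps of 27 to 32 bases. Over the 794 bases that the RefSeq promoter windows of the 2 genes cover together, 11 copies were found. Among all 32851 promoter windows of 300 bases (250 before to 50 after a start), 4 held the word on either strand, and these belonged to B3galt6 and Sdf4. The DBA sequence of this stretch was not analysed here.

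Gnb1 had the largest strain difference of the 4 genes, and its upstream sequence is given for that reason. It covers chr4:155491111-155491360 of GRCm38.p6, plus strand, 250 bases before the start (RefSeq). Capitals mark the GC box GGGCGG on either strand, where copies may overlap.
Gnb1 upstream: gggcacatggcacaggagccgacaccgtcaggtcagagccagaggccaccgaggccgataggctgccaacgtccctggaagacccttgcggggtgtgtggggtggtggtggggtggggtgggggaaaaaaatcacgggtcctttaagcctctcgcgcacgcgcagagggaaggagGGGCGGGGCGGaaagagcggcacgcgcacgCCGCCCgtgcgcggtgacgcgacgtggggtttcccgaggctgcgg
The Gnb1 window held 4 GC boxes, 3 of them in the part shown, and the Dvl1 window 5. Of all windows, 35.7% held at least 1. Neither gene's window held the letters TATAAA (13.6% of all windows) or CCAAT (37.4%), both strands searched. The Dvl1 window held the cAMP response element TGACGTCA once, which 1.79% of windows did. The GC content was 70.3% for Gnb1, 72.3% for Dvl1, 72.7% for B3galt6 and 63.3% to 72.0% for the 4 windows of Sdf4, against a median of 52.7% over all windows.

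The 9 arrays were alike as a whole, with median intensities from 160.5 to 198.4 and correlations of 0.946 to 0.970 between any pair over probe sets (a description, as sets are no replicates). Neuron markers were bright in both strains (9 of 10 measured, summed intensity 46148 to 48563 in C57 and 44901 to 52384 in DBA). Summed markers of oligodendrocytes, astrocytes, microglia, blood and pituitary overlapped between strains, though single markers moved. Of 7 tested microglia genes, 2 were called lower in DBA by limma, the complement genes C1qb (-0.85 ± 0.12, adjusted p = 0.00343) and C1qc (-0.65 ± 0.13, adjusted p = 0.0318). Among all tested sets 1.61% were called lower. By brightest sets 2 of the 7 microglia genes were above 0, Ctss (0.32 ± 0.12, limma adjusted p = 0.290) and Cx3cr1 (0.04 ± 0.16). The third C1q gene, C1qa, differed by -0.15 ± 0.12 (limma adjusted p = 0.696), so the list did not move as a whole. The 5 tested oligodendrocyte genes were all below 0 by their brightest sets (median -0.57) with 0 called (limma; 3 at an unadjusted p under 0.05), and Mobp was called at another of its sets (-0.84 ± 0.12, adjusted p = 0.00416). In blood, S100a8 did not overlap between strains (-1.01 ± 0.23, adjusted p = 0.0506). Summed choroid plexus markers did not overlap (4 of 6 measured, 3408 to 6859 in C57 and 7182 to 8495 in DBA). By brightest sets all 4 tested genes were above 0, but 0 were called by limma (2 at an unadjusted p under 0.05). Taken singly, 0 of the 4 were without overlap. Ttr, the thyroid hormone carrier made there, ranged from 907.4 to 2970.3 in C57 and from 2969.6 to 4143.2 in DBA. The part of these markers in the results below was not tested. The 3' to 5' log2 ratio of the Gapdh control also did not overlap, at -0.29 to -0.19 in C57 and -0.44 to -0.32 in DBA. Those of the actin, pyruvate carboxylase, transferrin receptor and ribosomal RNA controls overlapped. Xist was low in both strains (19.6 to 36.0 and 16.4 to 24.8). In whole tissue, fewer cells of a type and less RNA per cell cannot be told apart.

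Gnb1 was far brighter in DBA brain by each of its 3 probe sets, by 4.62-fold to 16.9-fold. The sets are called A, B and C here, in falling order of that difference. At set A the intensity in C57 animals 1 to 5 was 343.5, 515.9, 468.5, 508.1 and 493.7. In DBA animals 1 to 4 it was 6590.9, 8576.3, 9195.3 and 7020.4. The strains lay far apart, and the lowest C57 value, that of animal 1, stood below 4 others of similar height. The geometric means were 461 and 7772, a difference of 4.08 ± 0.16 (log2, DBA minus C57, with its standard error), or 16.9-fold.

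The remaining Gnb1 sets gave smaller differences of the same sign. At set B the C57 animals measured 841.7, 1161.7, 1232.7, 696.2 and 707.8, and the DBA animals 5453.5, 5909.6, 6639.8 and 5340.6. C57 animals 2 and 3 were higher than the other 3, and all 5 lay far below the DBA animals. The difference was 2.69 ± 0.19, or 6.45-fold. At set C the C57 animals measured 399.3, 360.0, 394.7, 311.9 and 342.4, and the DBA animals 1803.1, 1677.0, 1649.8 and 1537.4, each strain within a narrow band. This difference was 2.21 ± 0.11, or 4.62-fold. Sets B and C are listed against the same source sequence, so they are not separate pieces of evidence, whereas set A comes from another one. The largest and the smallest of the 3 log2 differences were 1.87 apart, so the folds given by set A and set C differed by 3.65 times. Where the probes lie in each gene, and whether the strains' sequences differ under them, was not tested for any member, so a fold here is one of probe signal.

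Sdf4, which lies 26 protein-coding genes beyond Gnb1, was higher in DBA by its only probe set. Its intensity in C57 animals 1 to 5 was 107.2, 62.5, 28.3, 39.1 and 45.5, and in DBA animals 1 to 4 it was 253.3, 265.8, 165.5 and 261.8. The strains did not overlap, but C57 animal 1 and DBA animal 3 stood apart from their groups towards each other. C57 animal 3 lay below 35.4, the brightness limit under which probe sets were left untested when averaged over all arrays. The means were 50.8 and 232, a difference of 2.19 ± 0.35, or 4.58-fold. On the scale of log2 of intensity plus 50, which shrinks differences of dim sets, it was 1.46. The closest pair of animals differed by 1.54-fold and the most distant by 9.39-fold.

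B3galt6 went the other way. The C57 animals measured 295.5, 298.8, 315.3, 328.5 and 345.3, and the DBA animals 173.7, 151.2, 158.7 and 149.4. Both strains kept to tight ranges with a wide gap between them. The means were 316 in C57 and 158 in DBA, a difference of -1.0 ± 0.10, or 2.00-fold lower in DBA. Every one of the 20 DBA-to-C57 pairs had the lower value in DBA, by 1.70-fold to 2.31-fold.

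Dvl1 differed least. The C57 animals measured 1592.6, 1504.9, 1565.1, 1469.0 and 1457.9, and the DBA animals 1812.8, 2073.1, 2061.6 and 1718.5. The highest C57 animal lay just below the lowest DBA animal, 1.08-fold apart. The difference was 0.33 ± 0.10, or 1.26-fold higher in DBA.

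**Figure D1:**
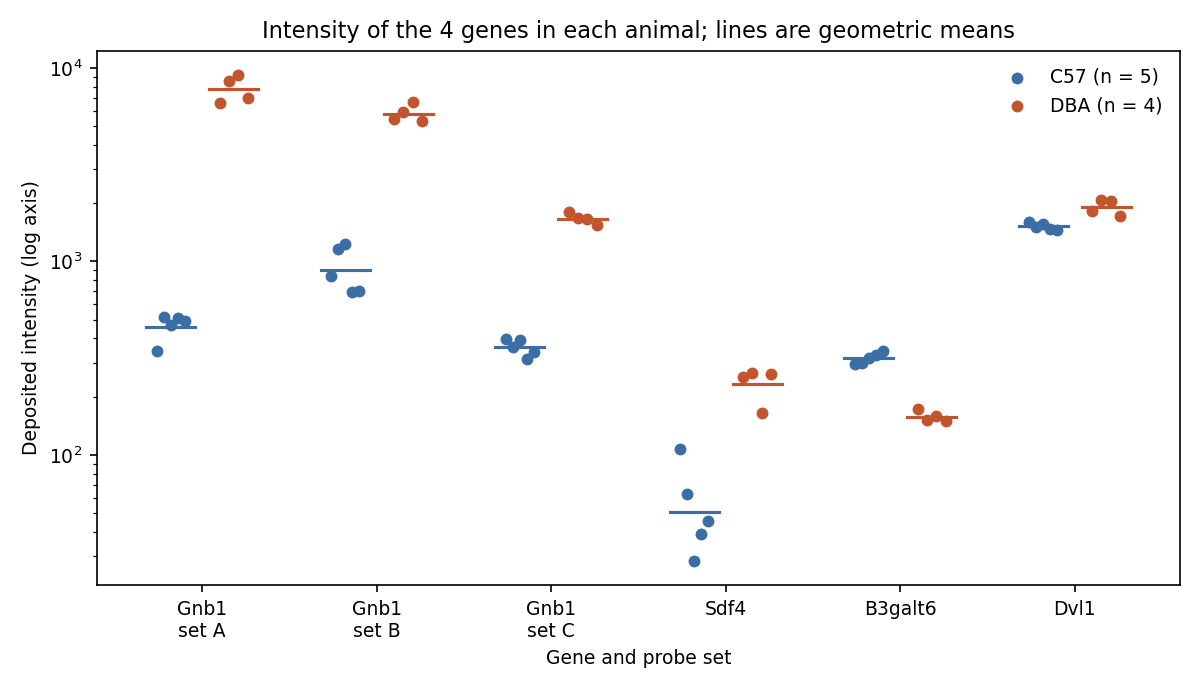
Deposited intensity on a log axis for each of the 6 probe sets, with a point for each of 5 C57 and 4 DBA animals and a line at each geometric mean. The strains do not overlap at any set, B3galt6 is the only gene lower in DBA, and Dvl1 shows the smallest gap.

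No C57 value overlapped a DBA value at any of the 6 sets, with 5 higher and 1 lower in DBA. Over all 9316 tested sets, 6.45% had no overlap, 2.84% with higher and 3.61% with lower values in DBA; nothing is read from the members' count, since this contrast chose them. By absolute log2 difference, set A of Gnb1 ranked 4 among the tested sets, set B 13, set C 25, Sdf4 26, B3galt6 192 and Dvl1 1806. The median absolute difference of a tested set was 0.15. More than 4-fold differences were found at 30 tested sets, and 4 of these were sets of Gnb1 or Sdf4.

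**Figure D2:**
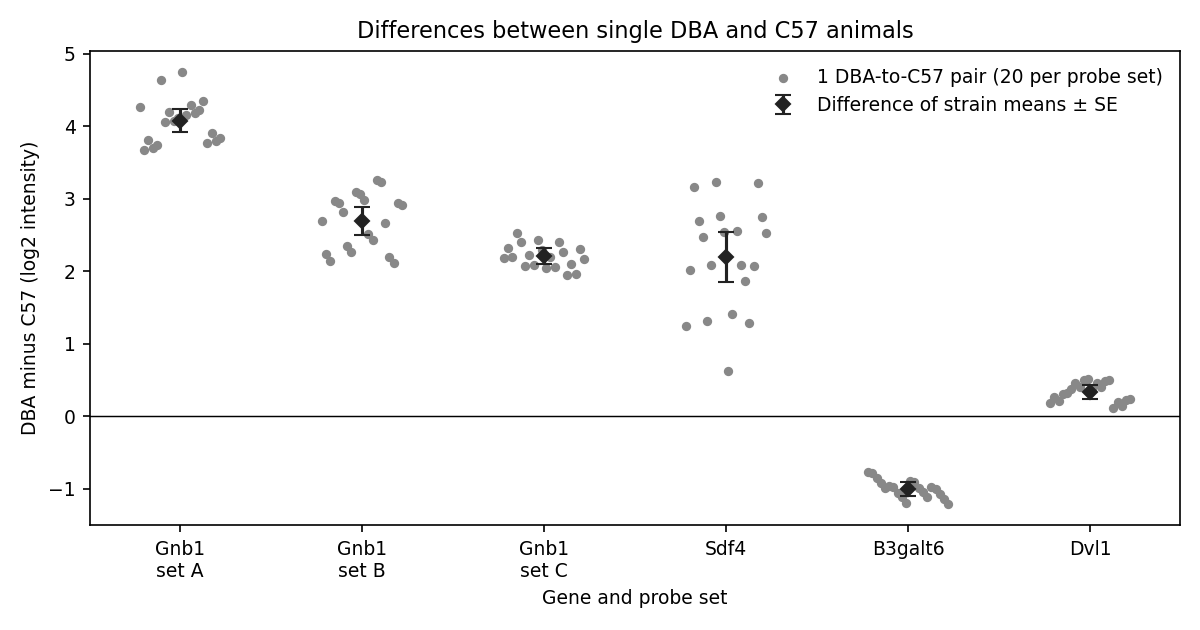
Log2 differences of the 20 DBA-to-C57 animal pairs (grey points) and of the strain means with standard error (diamonds) for the 6 probe sets. Pairs of Sdf4 run from 0.63 to 3.23, and those of B3galt6 from -1.21 to -0.77.

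The spread between animals of the same strain, which did not enter the choice, ranged widely over these sets. The SD of log2 intensity within C57 was 0.06 for Dvl1, 0.09 for B3galt6, 0.15 for Gnb1 set C, 0.24 for set A and 0.39 for set B. For Sdf4 it was 0.73, larger than in 94.8% of tested sets, whose median was 0.23. Within DBA the SD was 0.09 to 0.23 for the Gnb1 sets, 0.10 for B3galt6, 0.14 for Dvl1 and 0.33 for Sdf4, against a median of 0.23. Sdf4 was thus the most variable member by log2 SD in both strains. In DBA this rested on animal 3 (165.5), as animals 1, 2 and 4 lay between 253.3 and 265.8. Sdf4 was also the dimmest member in C57. With log2 of intensity plus 50 its pooled SD fell from 0.59 to 0.34, against 0.29 for Gnb1 set B.

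Genes around the members were compared next, to describe the rest of this stretch of the chromosome. Sdf4, B3galt6 and Dvl1 lie in it but were chosen partly on their strain difference and are not counted. Counts without them cannot tell how far a difference extends along the chromosome. Neighbours were the 60 protein-coding genes before Gnb1 and the 39 from it to the end of the chromosome, in RefSeq order of GRCm38.p6, without Sdf4, B3galt6 and Dvl1. Of these 96 genes, 37 were on the array and 36 were tested. By the brightest set of each gene, 1 was called higher and 0 lower in DBA (limma, adjusted p under 0.05), and 7 had an unadjusted p under 0.05. Among all tested sets 2.50% were called, 0.891% higher and 1.61% lower, and 12.2% had an unadjusted p under 0.05. The neighbours' median log2 difference was 0.00, against 0.01 over all tested sets. Of the 36 neighbours, 1 had no overlap between strains, against 6.45% of all tested sets. By any of their 44 tested sets the count of called genes was also 1.

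The called neighbour was Per3, a period gene of the circadian clock, which lies 56 genes before Gnb1. Its intensity ran from 212.0 to 245.0 in C57 and from 343.2 to 463.1 in DBA, with no overlap. It was 0.87 ± 0.11 higher in DBA (limma adjusted p = 0.00251; higher in 4 of 4 DBA than in 5 of 5 C57 animals). With the animal number as a replicate block its adjusted p was 0.0900. That fit leaves fewer residual degrees of freedom, and C57 animal 5 has no DBA animal of its number. Of the 25 tested genes before Gnb1 it was the only one called.

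Between Gnb1 and Sdf4, 8 other genes were tested, and 0 were called by limma (3 had an unadjusted p under 0.05). Dvl1 and B3galt6 also lie there and are not counted. Over all tested sets 2.50% were called and 12.2% had an unadjusted p under 0.05. With 8 genes, 0 called does not show that the stretch was alike in the strains. The nearest measured genes around Gnb1 were Gabrd, a delta subunit of GABA-A receptors (0.01 ± 0.11, adjusted p = 0.989), and Nadk, a NAD kinase (0.29 ± 0.55, adjusted p = 0.898), whose values overlapped widely. On either side of Dvl1 lay Ccnl2, a cyclin linked to splicing (0.07 ± 0.16, adjusted p = 0.920), and Ints11, a subunit of the Integrator complex (-0.14 ± 0.37, adjusted p = 0.928). Next to B3galt6 lay C1qtnf12, a secreted protein of the C1q and TNF related family, at 242.4 to 289.6 in C57 and 145.3 to 261.3 in DBA (-0.57 ± 0.17, adjusted p = 0.160). Without DBA animal 3 its difference was -0.77 (limma adjusted p = 0.00526), and the neighbours called then numbered 2. That was the lowest adjusted p of all settings run, and the highest was 0.422. Beyond Sdf4, Tnfrsf4 was below the brightness limit, and Tnfrsf18, a receptor of the TNF family, differed by -0.23 ± 0.16 (adjusted p = 0.662). Ssu72, a phosphatase of RNA polymerase II, differed by -0.39 ± 0.14 (adjusted p = 0.256) and Atad3a, a mitochondrial membrane ATPase, by 0.54 ± 0.20 at its single tested set (adjusted p = 0.269). All adjusted p-values here are from limma over 9316 sets.

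**Figure D3:**
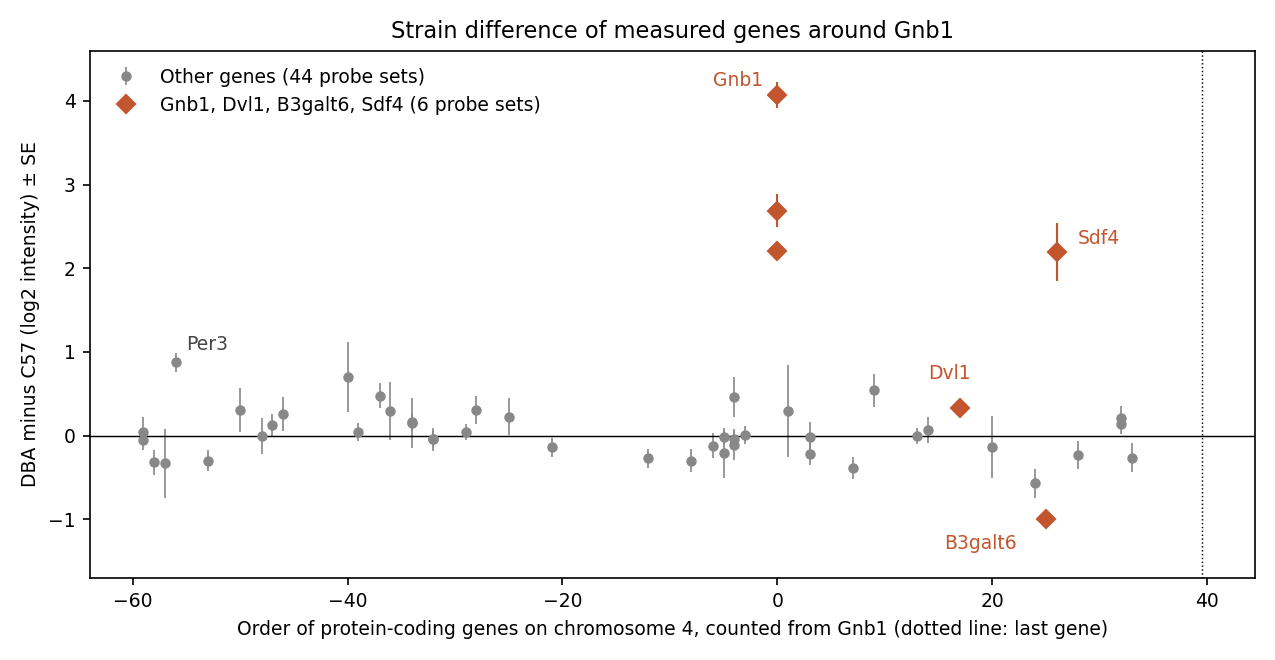
Strain difference (log2, DBA minus C57, ± standard error) of every tested probe set of the measured genes around Gnb1, by order of protein-coding genes on chromosome 4. Grey points are the 44 sets of other genes and red diamonds the 6 sets of Gnb1, Dvl1, B3galt6 and Sdf4; of the grey sets, Per3 alone was called.

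The partners of Gnb1 were read from lists of G protein genes. Of 16 other beta and gamma subunits listed, 10 were tested and 0 were called by limma (1 had an unadjusted p under 0.05). Over all tested sets 2.50% were called and 12.2% had an unadjusted p under 0.05, so nothing is read from these counts. The median log2 difference of the subunits was 0.01, as over all tested sets. Gnb2, another widely expressed beta subunit, measured 4027.1 to 5870.8 in C57 and 4137.6 to 6192.8 in DBA (0.09 ± 0.15, adjusted p = 0.875). Gnb4 differed by -0.14 ± 0.19 (adjusted p = 0.852) and Gnb5, which pairs with RGS proteins in neurons, by -0.05 ± 0.13 (adjusted p = 0.933). Gnb3, known from cone photoreceptors, was dim (15.9 to 96.8 in C57) and differed by 0.36 ± 0.48 (adjusted p = 0.849).

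Among gamma subunits, which anchor the pair to the membrane, Gng3 measured 7393.4 to 10388.2 in C57 and 8833.4 to 10047.3 in DBA (0.06 ± 0.12, adjusted p = 0.898). Gng2 differed by 0.26 ± 0.12 (adjusted p = 0.410), Gng10 by -0.11 ± 0.13 (adjusted p = 0.825) and Gng11 by 0.32 ± 0.19 (adjusted p = 0.575). Gng4 differed by -0.45 ± 0.39 (adjusted p = 0.734), with DBA values spread from 57.3 to 263.5. Gng12 differed by -0.28 ± 0.11 at one of its sets (adjusted p = 0.311) and by -0.10 ± 0.14 at the other (adjusted p = 0.861). Gngt2 lay below the brightness limit. A p above the threshold does not show that these levels were equal in the strains.

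**Figure D4:**
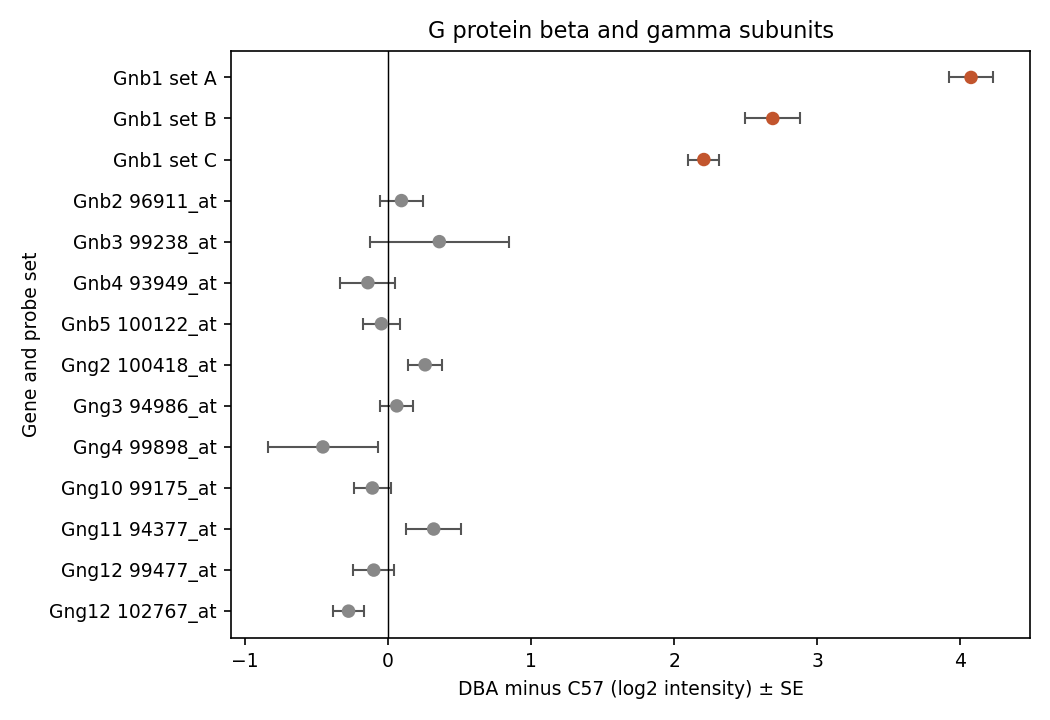
Strain difference (log2, DBA minus C57, ± standard error) of the tested probe sets of G protein beta and gamma subunits. The 3 sets of Gnb1 lie between 2.21 and 4.08, and those of the other genes between -0.45 and 0.36.

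Of 12 tested alpha subunits 0 were called by limma and 1 had an unadjusted p under 0.05 (median -0.03). The shares over all tested sets were 2.50% and 12.2%, so nothing is read from these counts either. The smallest p was that of Gna13 (-0.50 ± 0.16, limma adjusted p = 0.176), while its other set gave -0.08 ± 0.15 (adjusted p = 0.893). Of 19 tested effectors and regulators of the beta-gamma pair, 1 was called higher and 0 lower in DBA (median -0.04). Over all tested sets 0.891% were called higher and 1.61% lower. By brightest sets 3 of the 19 had no overlap between strains, against 6.45% of all tested sets. The called gene was Kcnj9, a subunit of the potassium channels that the pair opens directly. It differed by 1.44 ± 0.12 at its brighter set (limma adjusted p = 0.000147). Its geometric mean intensity there was 608 in C57 and 1644 in DBA, with no overlap. Its other set gave 0.65 ± 0.27 (adjusted p = 0.358). Rgs7 speeds the turn-off of G proteins together with Gnb5. It was at 1075 in C57 and 758 in DBA with no overlap (-0.50 ± 0.12, limma adjusted p = 0.0744). Over all settings run its adjusted p ranged from 0.0273 to 0.375, so it was not called in most of them.

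Of the pathway genes listed for Dvl1, B3galt6 and Sdf4, 0 were called, against 2.50% of all tested sets. Over all tested sets 12.2% had an unadjusted p under 0.05 and 6.45% had no overlap. By brightest sets 2 Wnt genes, 0 glycosaminoglycan enzymes and 1 gene of the Sdf4 list had no overlap. In lists this short, 0 called does not show that levels were equal in the strains. Of 34 tested genes of Wnt signalling other than Dvl1, 0 were called by limma and 2 had an unadjusted p under 0.05 (median 0.01). The smallest p was that of Sfrp1, a secreted Wnt inhibitor (0.58 ± 0.14, limma adjusted p = 0.0691). Over all settings run its adjusted p ranged from 0.0275 to 0.443. The related Dishevelled genes Dvl2 and Dvl3 differed by 0.16 and -0.39 at their brightest sets. Of 11 tested enzymes of glycosaminoglycan synthesis other than B3galt6, 0 were called and 1 had an unadjusted p under 0.05 (median -0.05), with the smallest p for Chst2, a sulfotransferase (-0.45 ± 0.17, adjusted p = 0.323). The other Chst2 set gave -0.17 ± 0.16 (limma adjusted p = 0.781). B3gat3, which adds the next sugar of the linker after the step of B3galt6, differed by 0.11. Of 12 tested genes of the Sdf4 family and of Golgi calcium handling, 0 were called and 1 had an unadjusted p under 0.05 (median -0.04), with the smallest p for Nucb1, a Golgi calcium-binding protein (0.26 ± 0.10, adjusted p = 0.330). The Sdf4 relatives Calu, Rcn1 and Rcn2 differed by -0.25, 0.02 and -0.12.

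Sets with a profile like that of a member were found by root mean square distance over the 9 animals, after subtracting from each set its C57 mean. This distance depends on the size of the strain difference, which chose the members. Sets with large rises in DBA are thus found by design, and the lists are a description only. Closest to Gnb1 set A were a set with no single symbol (distance 0.54 on the log2 scale), then Pam, which amidates peptide hormones (0.67), Cap1, a regulator of actin (0.82), AI506816 (0.84) and H2-D1, a class I histocompatibility gene (1.07). Closest to Sdf4 were Folh1, a glutamate carboxypeptidase (0.50), Gnb1 set C (0.50), another set with no single symbol (0.57), Ocel1 (0.57) and H2-D1 (0.58). The strain difference of the closest set was 3.68 for Gnb1 set A and 1.67 for Sdf4. AI506816 had a geometric mean of 17.7 in C57, under the brightness limit, and of 168 in DBA.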

How the data were processed

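The deposited values are intensities on a linear scale for 12488 probe sets, 66 of them array controls. How probes were summarised, with which software and scaling, is not given in the sources used here. The mean without the top and bottom 2% was 500.3 on every array. Per the labels, 5 ug of total RNA entered the array maker's usual procedure.

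Intensities were raised to the 1st percentile of positive values (1.70) and put on the log2 scale, with no further scaling, as array medians spanned 0.31. The dimmest 25% of sets were left out (limit 35.4). The remaining 9316 were fitted in R 4.3.3 with limma 3.58.1 (lmFit, then eBayes; 2-sided), with Benjamini-Hochberg adjustment over all of them; the fit was tested on simulated data. Standard errors are those of the fit. Precision is set by how many arrays there are. The platform annotation gave 1 symbol for 10833 sets, several for 396 and none for 1193, and 10817 were updated through gene identifiers. Members, neighbours and lists were chosen with earlier results of these data known. Named genes are all members, called neighbours, the nearest measured gene on each side of a member, all beta and gamma subunits, the called genes of other lists or their smallest p, and the 5 profiles most like Gnb1 and Sdf4. Ssu72, Atad3a, Tnfrsf18, Rgs7, Dvl2, Dvl3, B3gat3, Calu, Rcn1 and Rcn2 were added after their values were seen. The markers named singly (C1qa, C1qb, C1qc, Ctss, Cx3cr1, Mobp, S100a8, Ttr and Xist) were taken from the marker lists outside these rules, with their values known. On the second platform, levels of 5825 genes by the listed names had a rank correlation of 0.0026 with those on the arrays used, so its 18 arrays were left out. Alternatives covered scaling, floor, log offset, filter, variance model, threshold, the number as a block, extent, and leaving out each animal.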

Additional observations from a re-analysis of the deposited data

Results flagged for a closer look

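Of 12 groups of animals (6 probe sets in 2 strains), 2 held an animal far from the rest by the gap to its nearest neighbour relative to the group's range. Chance alone marks about 1 in 20 such groups. At Gnb1 set A, C57 animal 1 had a log2 intensity of 8.42, the lowest of the strain, with a gap of 0.76 of the range. Without it the strain difference was 3.97. At Sdf4, DBA animal 3 had a log2 intensity of 7.37, with a gap of 0.90 of the range, and without it the difference was 2.36.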

How the results depend on the processing

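All 6 member differences kept their sign under every alternative run, and 87 of 90 such values moved by less than 1 SD. The strains did not overlap at any member set, so leaving out an animal or adding a constant could not change a sign. Nothing is read from the kept signs. With log2 of intensity plus 50 they shrank to 2.06 (Gnb1 set C), 1.46 (Sdf4) and -0.82 (B3galt6), since an added constant shrinks the differences of dim sets. Leaving out 1 animal gave 3.97 to 4.16 for Gnb1 set A, 2.60 to 2.80 for set B, 2.16 to 2.25 for set C, 1.98 to 2.46 for Sdf4, -1.05 to -0.97 for B3galt6 and 0.29 to 0.38 for Dvl1.

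The replicate block lowered the calls over all sets from 233 to 73 and left 0 neighbours called (Per3 adjusted p = 0.0900). Residuals of same-numbered C57 and DBA animals correlated at -0.17 to -0.01, so the numbers were not taken to pair the animals. A threshold of 0.01 left 150 calls. Leaving out 1 animal gave 184 to 228 calls. Neighbours called were 1 to 2 with 1 animal left out (2 without DBA animal 3) and 0 within 30 genes on each side, which leaves Per3 outside. Effectors called were 2 with log2 of intensity plus 50, with the dimmest 50% left out and with eBayes trend and robust (Kcnj9 and Rgs7), and 1 to 2 with 1 animal left out. Wnt genes called were 1 with quantile normalization and with median centring (Sfrp1), and 0 to 1 with 1 animal left out. The other 4 pathway lists had 0 called under each alternative run; marker lists were not rerun. The pooled SD within strains moved to 0.078 for Gnb1 set C and 0.16 for B3galt6 with quantile normalization, to 0.19 for B3galt6 with median centring, and to 0.34 for Sdf4 with log2 of intensity plus 50; the cause was not tested. Each gene other than Gnb1 rests on 1 set, and brightness limits Sdf4 in C57 most.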
